A study of Mus musculus with 18 samples.

Results

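The 7 genes of lipins and triglyceride assembly enzymes, *Lpin1*, *Lpin2*, *Lpin3*, *Gpam*, *Agpat2*, *Dgat1* and *Dgat2*, were taken by symbol from a table of 21899 genes, and each symbol matched 1 gene. The table holds 18 RNA-seq libraries of liver, epididymal white adipose tissue (eWAT) and muscle. For each tissue there were 3 libraries of the HSD group and 3 of the CON group. All mice were male wild type C57BL/6 of 18 weeks. The HSD group had received chow with 8% NaCl and 0.9% saline to drink for 12 weeks, and the CON group chow and tap water. The comparison addresses whether long-term salt intake altered the mRNA of this pathway in the 3 tissues. The values are FPKM, that is, fragments scaled by gene length and library total. They measure mRNA, not enzyme protein or activity. In whole tissue, fewer cells of a type and less RNA per cell cannot be told apart.

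Triglyceride is assembled at the endoplasmic reticulum from glycerol 3-phosphate and acyl-CoA. *Gpam* encodes the mitochondrial glycerol-3-phosphate acyltransferase that adds the first acyl chain, and *Agpat2* an acyltransferase that adds the next one to form phosphatidate. The lipins are phosphatidate phosphatases that turn phosphatidate into diacylglycerol, and *Lpin1* also acts as a transcriptional coactivator. *Dgat1* and *Dgat2* encode unrelated enzymes that add the last acyl chain to diacylglycerol. The pathway stores fat in adipocytes and supplies the triglyceride that liver secretes in VLDL.

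On mouse build mm10, *Lpin1* (ENSMUSG00000020593) lies on the minus strand at chr12:16535669-16610966, *Lpin2* (ENSMUSG00000024052) on the plus strand at chr17:71182560-71249817 and *Lpin3* (ENSMUSG00000027412) on the plus strand at chr2:160880670-160906002. *Gpam* (ENSMUSG00000024978) lies at chr19:55067268-55127238, *Agpat2* (ENSMUSG00000026922) at chr2:26593057-26604417, *Dgat1* (ENSMUSG00000022555) at chr15:76502015-76511953 and *Dgat2* (ENSMUSG00000030747) at chr7:99153658-99182719, and these 4 are on the minus strand. All 7 are protein-coding. In the annotation, 64 of the 2130 exon bases of *Agpat2* are shared with *Egfl7* on the opposite strand, where reads of both could be mixed if counting ignored strand, and the exons of the other 6 genes overlap no other gene.

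Sequences before the transcription start are shown for the 3 lipins, because *Lpin1* and *Lpin3* were lower in HSD liver while the *Lpin2* groups overlapped, and for *Agpat2*, which was lower in HSD eWAT. They are from RefSeq on build GRCm38.p6, which holds windows for 5 of the 7 genes. *Dgat1* and *Dgat2* are named only. The table has 3 windows for *Lpin2* and 2 each for *Lpin3* and *Gpam*, and the first listed is shown for *Lpin2* and *Lpin3*. *Gpam* is not printed. Each runs 5′ to 3′ from 250 bases before the start to 30 after, and capitals mark a match to 1 of 5 motifs searched on both strands. The motifs were the E-box CACGTG, the CCAAT box CCAAT, a sterol response element TCACNCCAC, the nuclear receptor half-site AGGTCA and the TATA box TATAAA.
Lpin1 (chr12:16610937-16611216, minus strand): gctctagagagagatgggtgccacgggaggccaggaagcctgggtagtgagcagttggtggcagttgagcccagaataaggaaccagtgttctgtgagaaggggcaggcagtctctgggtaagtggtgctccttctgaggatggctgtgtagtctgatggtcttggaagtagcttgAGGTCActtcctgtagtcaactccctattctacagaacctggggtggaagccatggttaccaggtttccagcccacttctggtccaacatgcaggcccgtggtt
Lpin2 (chr17:71183282-71183561, plus strand): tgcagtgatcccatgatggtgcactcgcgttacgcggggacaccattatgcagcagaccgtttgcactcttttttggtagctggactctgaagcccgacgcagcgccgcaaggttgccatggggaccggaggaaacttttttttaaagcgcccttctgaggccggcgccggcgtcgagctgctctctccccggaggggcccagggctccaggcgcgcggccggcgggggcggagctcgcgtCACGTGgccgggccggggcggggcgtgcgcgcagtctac
Lpin3 (chr2:160880420-160880699, plus strand): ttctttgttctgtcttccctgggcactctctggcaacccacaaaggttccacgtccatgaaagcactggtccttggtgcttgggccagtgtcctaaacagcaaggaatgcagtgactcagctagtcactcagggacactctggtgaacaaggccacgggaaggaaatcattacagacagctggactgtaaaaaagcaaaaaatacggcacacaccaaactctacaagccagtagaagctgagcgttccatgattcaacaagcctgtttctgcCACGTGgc
Agpat2 (chr2:26604388-26604667, minus strand): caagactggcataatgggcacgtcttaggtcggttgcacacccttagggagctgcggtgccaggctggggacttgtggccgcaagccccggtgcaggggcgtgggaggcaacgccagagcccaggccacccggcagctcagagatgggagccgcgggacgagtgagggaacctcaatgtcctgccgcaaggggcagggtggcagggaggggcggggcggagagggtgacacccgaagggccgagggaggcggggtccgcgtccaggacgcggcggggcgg

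The *Lpin1* sequence holds AGGTCA 74 bases before the start. The *Lpin2* sequence holds CACGTG 9 bases before its start, and *Lpin3* holds the same letters 22 bases after its start. In *Agpat2* none of the 5 motifs was found. Of the windows not shown, the third of *Lpin2* holds CCAAT at 3 places, the first of *Gpam* holds CCAAT 74 bases before its start and the second AGGTCA 196 bases before. No matches overlapped. Among the 32851 windows of 300 bases in the table, 16.3% hold AGGTCA, 7.15% CACGTG, 37.4% CCAAT, 1.24% TCACNCCAC and 13.6% TATAAA. A match describes the letters and is no evidence of binding.

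Library totals over the genes of the table ranged from 7628070 to 16637486 fragments. These were recovered from the FPKM of 18330 of 18822 genes with the exon length of the annotation, and with another length for the other 492, *Lpin1* included (9930 in place of 9665 bases). All 10 hepatocyte markers were at 1 FPKM or more in every liver library, all 10 adipocyte markers in every eWAT library and all 10 skeletal muscle markers in every muscle library. Several libraries stood apart. In the HSD eWAT library HS3W, 10 of 10 markers of epididymal epithelium were at 1 FPKM or more and summed to 17507 FPKM, and its adipocyte markers summed to 7679 FPKM against 18263 to 24898 in the other eWAT libraries. The CON liver library CON16L had skeletal muscle markers at 6.87% of their mean sum over the 6 muscle libraries, with 10 of 10 at 1 FPKM or more. The share of fragments on 13 mitochondrially encoded genes ranged from 25.7% to 60.8% in CON liver and from 15.4% to 44.4% in HSD liver, and it enters every FPKM of these libraries. The study's lists of libraries leave out CON16L, HS5L and HS5W, so results are given over all libraries and again without these 3. The 18 libraries carry 8 mouse labels, 4 of which occur in all 3 tissues. P-values set a group difference against the spread between these libraries. The main fits over several tissues treat libraries with the same mouse label as independent.

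In the CON group, each tissue had its own set of these enzymes. Liver was a *Lpin2* tissue, whereas eWAT and muscle were *Lpin1* tissues. *Dgat2* and *Agpat2* had their highest level in eWAT and their lowest in muscle.

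**Figure D1:**
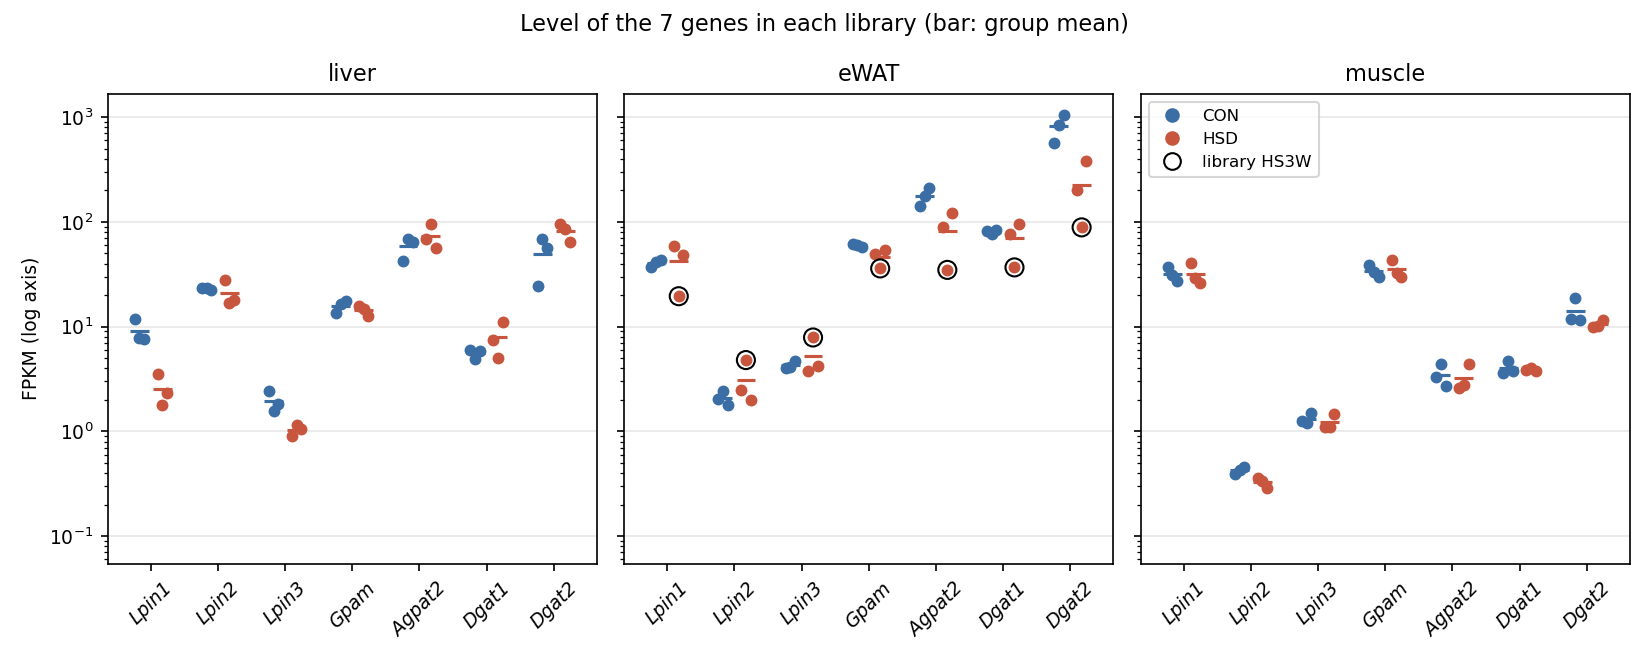
FPKM (log axis) of the 7 genes in each of the 18 libraries, by tissue, with CON in blue, HSD in red, bars at group means and a ring around HS3W. The HSD points of *Lpin1* in liver (1.78 to 3.51) and of *Dgat2* in eWAT (88.6 to 379) lie below all CON points of the same gene and tissue.

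Among the lipins, *Lpin2* was at 23.1, 23.5 and 22.2 FPKM in the CON liver libraries, 2.08 ± 0.312 FPKM in CON eWAT and 0.425 ± 0.0292 FPKM in CON muscle (SD, n = 3 each). The groups did not overlap, and the muscle level rested on 62 to 64 fragments per library. The mean in liver was 11.04-fold that in eWAT and 53.9-fold that in muscle, with log2 differences in limma of −3.19 (SE 0.13, Benjamini-Hochberg adjusted p = 6.65e-08) for eWAT minus liver and −4.66 (SE 0.13, adjusted p = 2.03e-08) for muscle minus liver. *Lpin1* ran the other way, with 40.6 ± 3.44 FPKM in CON eWAT, 31.6 ± 4.92 in CON muscle and 9.09 ± 2.28 in CON liver. Its eWAT mean was 4.47-fold the liver mean (log2 difference 2.12, SE 0.21, adjusted p = 1.15e-05). The muscle and eWAT libraries overlapped for *Lpin1* and did not differ beyond their spread (−0.36, SE 0.21, adjusted p = 0.146), and the sign of this difference turned under median-ratio and quantile scaling (0.62 and 0.12). *Lpin3* was low in each tissue, at 1.96 ± 0.445 FPKM in liver, 4.26 ± 0.344 in eWAT and 1.33 ± 0.153 in muscle.

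As a share of summed lipin FPKM, *Lpin2* made up 67.8% ± 5.04 in CON liver, 4.45% ± 0.765 in CON eWAT and 1.30% ± 0.267 in CON muscle. *Lpin1* made up 26.5% ± 4.27, 86.5% ± 0.622 and 94.6% ± 1.23 in the same order. These shares do not depend on the scaling of a library.

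Among the acyltransferases, *Dgat2* was the most abundant of the 7 genes in eWAT, at 566, 837 and 1050.0 FPKM in the CON libraries. It was at 24.5, 55.8 and 68.7 FPKM in CON liver and at 11.5, 11.7 and 18.9 FPKM in CON muscle. All 3 tissues were separate in these values. The eWAT mean of 818 ± 243 FPKM was 16.5-fold the liver mean (log2 difference 4.11, SE 0.42, adjusted p = 1.36e-05) and 58.3-fold the muscle mean (adjusted p = 3.18e-06 in limma).

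*Dgat1* was at 80.6 ± 3.76 FPKM in CON eWAT, 14.4-fold its mean of 5.59 ± 0.589 FPKM in liver and 19.98-fold its mean of 4.03 ± 0.603 in muscle. Liver and muscle differed for *Dgat1* by less than the 2-fold limit (log2 difference −0.43, SE 0.16). *Agpat2* was at 177 ± 33.8 FPKM in eWAT, 58.5 ± 14.4 in liver and 3.45 ± 0.847 in muscle, where it rested on 64 to 110 fragments. Its muscle mean was 51.3-fold below the eWAT mean and 16.98-fold below the liver mean. *Gpam* was less tissue-bound, with 59.7 ± 1.81 FPKM in eWAT, 33.8 ± 4.54 in muscle and 15.9 ± 2.10 in liver.

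A gene was called at an adjusted p under 0.05 and an absolute log2 difference of at least 1. For CON eWAT minus CON liver, 6 of the 7 genes were called, all but *Lpin3*, against 69.4% of 12637 genes tested. For muscle minus liver, 5 were called (all but *Lpin3* and *Dgat1*) against 50.1%, and for muscle minus eWAT 5 (all but *Lpin1* and *Gpam*) against 54.9%. The median log2 difference of all genes was 1.36 for eWAT minus liver, 0.52 for muscle minus liver and −0.93 for muscle minus eWAT, and median-ratio scaling moved these medians to 0.01, 0.07 and −0.12. Under that scaling *Lpin3* and *Agpat2* turned sign for eWAT minus liver (−0.45 and −0.06), and *Gpam* turned for muscle minus eWAT (0.17). The order of *Lpin2*, *Dgat1* and *Dgat2* between eWAT and liver kept its sign under each scaling tried.

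The other genes of the pathway, 37 in 6 lists, were compared between tissues of the CON group beside all genes. For eWAT minus liver, 21 were called higher and 7 lower, against 69.4% of all genes (7851 higher and 917 lower, or 2706 and 2585 with median-ratio scaling), and the median was 1.34 against 1.36. Higher in eWAT were the glycerol channel *Aqp7* (log2 difference 6.59), the acyltransferase *Gpat3* (4.91), the monoacylglycerol acyltransferase *Mogat1* (4.64), the cholinephosphotransferase *Chpt1* (3.75) and the CDP-diacylglycerol synthase *Cds1* (3.67). Lower in eWAT were *Fitm1* (−5.07), a lipid droplet protein of muscle, *Pcyt2* (−4.07) of phosphatidylethanolamine synthesis, the VLDL assembly genes *Mttp* (−3.21) and *Tm6sf2* (−3.05), and *Pemt* (−2.88), which methylates phosphatidylethanolamine.

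For muscle minus liver, 14 were called higher and 12 lower against 50.1% of all genes, with a median of 0.82 against 0.52. *Pcyt1a* (3.70), the lipid phosphatase *Plpp1* (3.45), *Aqp7* (2.78), the acyl-CoA synthetase *Acsl6* (2.77) and *Fitm2* (2.51) were higher, and *Pck1* (−7.37), *Pcyt2* (−5.06), *Pemt* (−5.02), *Mttp* (−3.77) and glycerol kinase *Gk* (−3.50) were lower. For muscle minus eWAT, 3 were called higher and 18 lower against 54.9% of all genes, with a median of −0.99 against −0.93. *Fitm1* (6.72), *Acsl6* (2.88) and *Acsl3* (1.34) were higher, and *Pck1* (−6.73), *Gpat3* (−4.68), *Mogat1* (−4.68), the seipin gene *Bscl2* (−4.10) and *Plpp2* (−3.86) were lower. Each of these genes passed limma with an adjusted p under the threshold. Several were near 0 in the lower tissue and passed the filter through a tissue where they were high. The size of such differences depends on the 0.5 added to FPKM. In CON liver *Aqp7* was at 0 to 0.882 FPKM, *Mogat1* at 0 to 0.497, *Cds1* at 0 to 0.139 and *Acsl6* at 0 to 0.173. *Fitm1* was at 0 to 0.193 FPKM in CON eWAT, and *Gk*, *Mogat1* and *Plpp2* at 0.0969 to 0.600 in CON muscle.

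In liver, the lipin composition of the HSD libraries was separate from that of the CON libraries, though no gene passed the test across all genes. *Lpin1* was at 11.7, 7.86 and 7.68 FPKM in the CON libraries and at 3.51, 1.78 and 2.34 FPKM in the HSD libraries. Each HSD library lay below each CON library, and the counts behind these values were 698 to 908 and 183 to 363 fragments. The mean was 3.58-fold lower in the HSD group (9.09 ± 2.28 to 2.54 ± 0.883 FPKM, SD, n = 3), with a log2 fold change of −1.67 (SE 0.30, unadjusted p = 0.000656). After adjustment over 10317 genes it did not pass (adjusted p = 0.677 in limma), and 0 of all genes (0%) were called in this comparison by limma, as by limma voom on the recovered fragments, against 592 genes (5.74%) at an unadjusted p under 0.05.

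*Lpin3* was at 2.45, 1.58 and 1.83 FPKM in CON liver and at 0.909, 1.15 and 1.05 FPKM in HSD liver. The groups did not overlap, at 62 to 69 against 33 to 44 fragments. The log2 fold change was −0.67 (SE 0.22, adjusted p = 0.764). *Lpin2*, the main lipin of liver, was at 23.1, 23.5 and 22.2 FPKM in CON and at 27.7, 16.7 and 17.9 FPKM in HSD. These groups overlapped (log2 fold change −0.18, SE 0.31, 95% interval −0.91 to 0.55).

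In the acyltransferases of liver the groups overlapped. *Dgat2* was at 24.5, 68.7 and 55.8 FPKM in CON and at 95.9, 84.8 and 63.9 FPKM in HSD (log2 fold change 0.81, SE 0.47, adjusted p = 0.764 in limma). *Dgat1* (0.40, SE 0.32), *Agpat2* (0.33, SE 0.39) and *Gpam* (−0.14, SE 0.27) had intervals that held 0. The direction of *Agpat2* turned when libraries were quantile-normalized (−0.09) or mitochondrially encoded genes were dropped (−0.04). Non-overlap with HSD below CON in 2 of the 7 genes, *Lpin1* and *Lpin3*, compares with 3.47% of all genes tested.

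Relative to *Lpin2* in the same library, *Lpin1* was at 0.507, 0.335 and 0.346 in CON liver and at 0.127, 0.107 and 0.131 in HSD liver. The ratio is free of library scaling, and its geometric mean was 3.21-fold lower in the HSD group, with no overlap. An exact permutation test of 3 against 3 cannot give a p below 0.1, and this 2-sided p was 0.1 (0.225 after adjustment over 9 ratio tests). *Lpin1* made up 26.5% ± 4.27 of lipin FPKM in CON liver and 10.3% ± 1.10 in HSD liver, while *Lpin2* made up 67.8% ± 5.04 and 85.1% ± 1.09. The 8 macrophage markers, with 7 of 8 at 1 FPKM or more in every liver library and none at 0, summed to 39.2 to 60.7 FPKM in CON liver and 21.1 to 33.9 FPKM in HSD liver. These sums did not overlap, and their part in the lipin values was not tested.

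**Figure D2:**
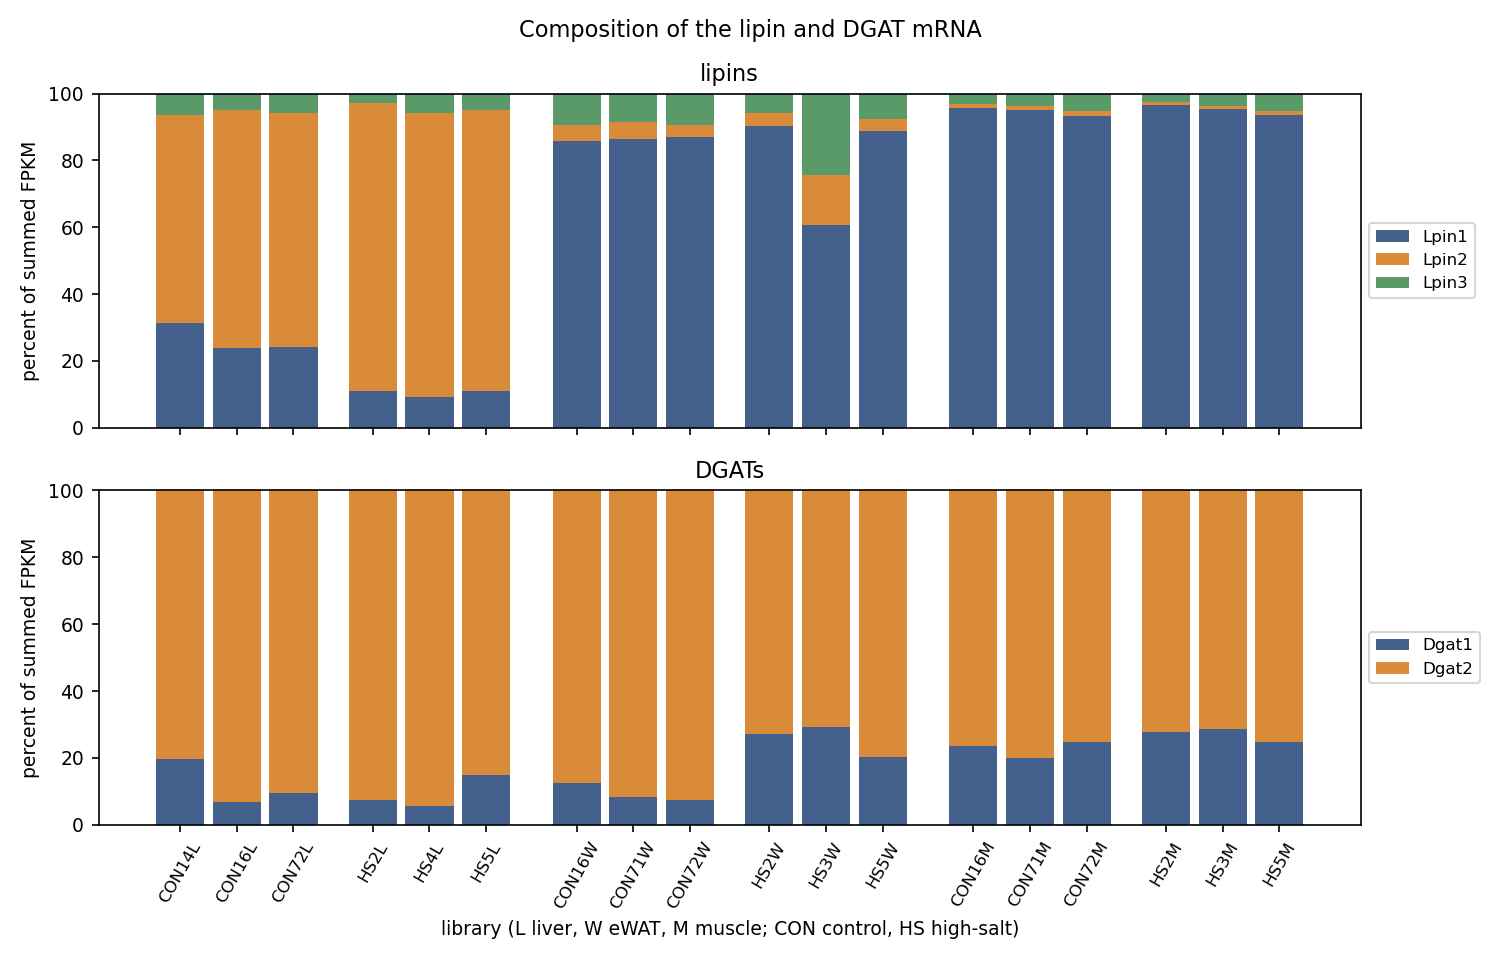
Share (percent of summed FPKM) of each gene in the lipin family (top) and of *Dgat1* and *Dgat2* (bottom) in each of the 18 libraries. *Lpin1* takes 23.9% to 31.4% of lipin FPKM in CON liver and 9.07% to 11.02% in HSD liver, and *Dgat1* takes 7.40% to 12.6% of DGAT FPKM in CON eWAT and 20.1% to 29.3% in HSD eWAT.

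When liver was restricted to the libraries the study lists (without CON16L and HS5L, so 2 against 2), *Lpin1* had a log2 fold change of −1.73 (SE 0.37, adjusted p = 0.0574) and was not called, against 0.351% of 9970 genes called. *Dgat2* was at 24.5 and 55.8 FPKM in CON and 84.8 and 95.9 in HSD (1.27, SE 0.52, adjusted p = 0.136), *Lpin3* had −0.78 (SE 0.27, adjusted p = 0.102) and *Agpat2* 0.64 (SE 0.48). Non-overlap was no mark of these genes in 2 against 2 libraries, as 64.6% of all genes did not overlap. *Lpin1* was called in this comparison with a pseudocount of 1 (−1.57, adjusted p = 0.0488), with a mean FPKM of at least 1 (adjusted p = 0.0472), with the mitochondrially encoded genes left out (−2.50, adjusted p = 0.0266), with library weights or in a fit of all tissues. Calls over all genes in these settings were 238 of 9970, 322 of 8492, 196 of 10847, 757 of 9970 and 1817 of 13149. The median of all genes was −0.43 with the mitochondrially encoded genes left out. Over the alternatives that kept all 4 libraries, the adjusted p of *Lpin1* ran from 0.0107 to 0.192. Without 1 of the 4, the lone library left in its group is assumed to vary like the others. The adjusted p then ran from 0.000796 without CON72L to 0.347 without HS4L. Leaving out CON16L, the library with muscle markers, from all 6 libraries gave −1.76 for *Lpin1*, and the lowest and highest value without any 1 library were −1.89 and −1.48. CON14L, with 60.8% mitochondrial fragments, had the highest *Lpin1* and the lowest *Dgat2* of the CON libraries. Its hepatocyte markers summed to 12854 FPKM against 47335 and 64474 in the others, and the part of these in the results was not tested.

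Of the 37 other pathway genes, 31 were tested in liver and none was called with limma. At an unadjusted p under 0.05, 4 were higher and 0 lower, against 5.74% of all genes, with a median of 0.22 against 0.13 over all genes. The smallest p had *Pck1*, the gluconeogenic and glyceroneogenic enzyme, at 839.6, 879 and 1079 FPKM in CON and 1844, 2201 and 1981 in HSD (log2 fold change 1.11, SE 0.41, adjusted p = 0.764). Next was *Plpp2*, a lipid phosphatase, at 4.87 ± 2.64 FPKM in CON and 9.05 ± 0.733 in HSD (0.94, SE 0.36). The HSD libraries were above the CON libraries for both. Both were named for their small p, so this separation is no separate result. How common it was over all genes is not given here. Over the study's libraries 10 were higher and 3 lower at an unadjusted p under 0.05, against 31.7% of all genes (3164 of 9970), with a median of 0.67 against 0.24. None was called, and the smallest p had *Chpt1* (1.74, SE 0.40, adjusted p = 0.059) and *Plpp2* (1.26, SE 0.30, adjusted p = 0.0613).

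In eWAT, *Dgat2*, *Agpat2* and *Gpam* were lower in each HSD library than in each CON library, and the lipins overlapped. No gene passed the test across all genes. *Dgat2* was at 566, 837 and 1050.0 FPKM in the CON libraries and at 203, 88.6 and 379 FPKM in the HSD libraries HS2W, HS3W and HS5W. The groups did not overlap. The mean was 3.66-fold lower in the HSD group (818 ± 243 to 224 ± 146 FPKM, n = 3), with a log2 fold change of −2.06 (SE 0.56, unadjusted p = 0.0104), which did not pass over 13740 genes (adjusted p = 0.186 in limma). In this comparison 0 genes (0%) were called by limma and by limma voom, and 2298 genes (16.7%) had an unadjusted p under 0.05.

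*Agpat2* was at 142, 178 and 209.8 FPKM in CON eWAT and at 90.0, 34.8 and 121 FPKM in HSD eWAT. The groups did not overlap, and the mean was 2.16-fold lower (log2 fold change −1.26, SE 0.47, adjusted p = 0.271). *Gpam* was at 61.2, 60.2 and 57.7 FPKM in CON and at 49.4, 35.9 and 54.1 FPKM in HSD, with a smaller difference and no overlap (−0.38, SE 0.17, adjusted p = 0.325). *Dgat1* was at 81.4, 76.5 and 83.9 FPKM in CON and at 76.1, 36.8 and 95.5 in HSD, and the groups overlapped (−0.32, SE 0.35). Non-overlap with HSD below CON thus held for 3 of the 7 genes, *Dgat2*, *Agpat2* and *Gpam*, and for 12.4% of all genes tested.

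Among the lipins of eWAT, *Lpin1* was at 36.8, 41.6 and 43.4 FPKM in CON and at 58.7, 19.5 and 48.4 FPKM in HSD. The low value is HS3W, and the other HSD libraries lay above CON. The log2 fold change of *Lpin1* was −0.08 (SE 0.41) over all libraries and 0.39 without HS3W (adjusted p = 0.095). *Lpin2* and *Lpin3* were highest in HS3W, at 4.80 and 7.88 FPKM, against 1.78 to 2.50 and 3.79 to 4.65 in the other eWAT libraries. Their log2 fold changes of 0.41 (SE 0.30) and 0.22 (SE 0.27) became 0.09 and −0.08 without it.

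Without HS3W, the log2 fold change was −1.51 for *Dgat2* (adjusted p = 0.0569), −0.74 for *Agpat2* (adjusted p = 0.0771), −0.20 for *Gpam* and 0.08 for *Dgat1*, and none of the 7 was called against 160 of 13245 genes. Over the study's eWAT libraries, which hold HS3W and not HS5W, *Dgat2* had −2.56 (SE 0.46, adjusted p = 0.166), *Agpat2* −1.63 (SE 0.44, adjusted p = 0.186), *Gpam* −0.50 (SE 0.17) and *Lpin2* 0.64 (SE 0.29). None of the 7 was called there, nor any of 13844 genes, and 19.6% had an unadjusted p under 0.05.

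**Figure D3:**
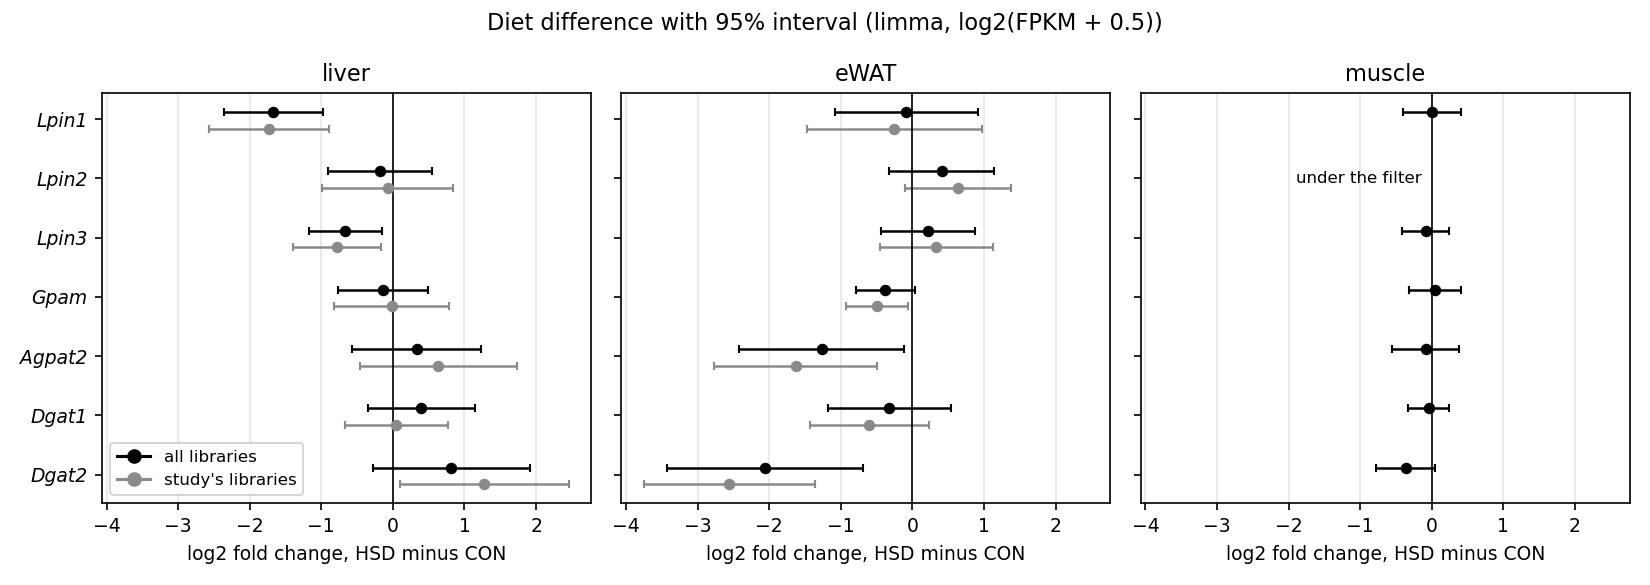
Log2 fold change of HSD minus CON with its 95% interval for each gene, by tissue, over all libraries (black) and over the study's libraries of liver and eWAT (grey). The intervals of *Lpin1* and *Lpin3* in liver and of *Agpat2* and *Dgat2* in eWAT lie below 0 in both sets, and no gene passed the adjusted threshold.

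Markers of cell types in eWAT also differed in level between the libraries. The geometric mean of the adipocyte markers was 842 to 914 FPKM in CON, 859 in HS2W, 887 in HS5W and 285 in HS3W. The 8 macrophage markers, all detected, summed to 581 to 861 FPKM in CON and 253 to 540 FPKM in HSD. The hepatocyte markers summed to 1088 to 1588 FPKM in CON, with 9 or 10 of 10 at 1 FPKM or more, and to 671 to 2576 FPKM in HSD, with 2 to 4 of 10. Most of this sum was *Cyp2e1*, at 942 to 1402 FPKM in CON and 664 to 2567 in HSD. Of the secreted liver proteins, each HSD library lay below each CON library for *Alb* at 53.9 to 167 FPKM in CON and 3.30 to 7.85 in HSD, *Apoa1* at 19.6 to 53.2 and 0.329 to 2.02, and *Ttr* at 9.22 to 24.6 and 0.411 to 1.92. Their part in the results was not tested. As a percent of the geometric mean of the adipocyte markers of the same library, a scale chosen after seeing the data, *Dgat2* was at 67.2, 91.6 and 117 in CON and 23.7, 31.1 and 42.7 in HSD. *Agpat2* was at 16.9, 19.5 and 23.5 in CON and 10.5, 12.2 and 13.6 in HSD. Both groups stayed apart on this scale, HS3W included. *Gpam* overlapped on it, and *Lpin1* was at 4.37, 4.55 and 4.86 in CON and 6.84, 6.85 and 5.46 in HSD, with HSD above CON. This rise of *Lpin1* (log2 value 0.46) was smaller than that of the median gene on the same scale (0.60). The share of genes with HSD above CON on it is not given here. Summed adipocyte markers were higher in HS2W and HS5W (23678 and 24898 FPKM) and lower in HS3W (7679) than in CON (18263 to 19387). *Lpin1* relative to that sum was not tested.

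**Figure D4:**
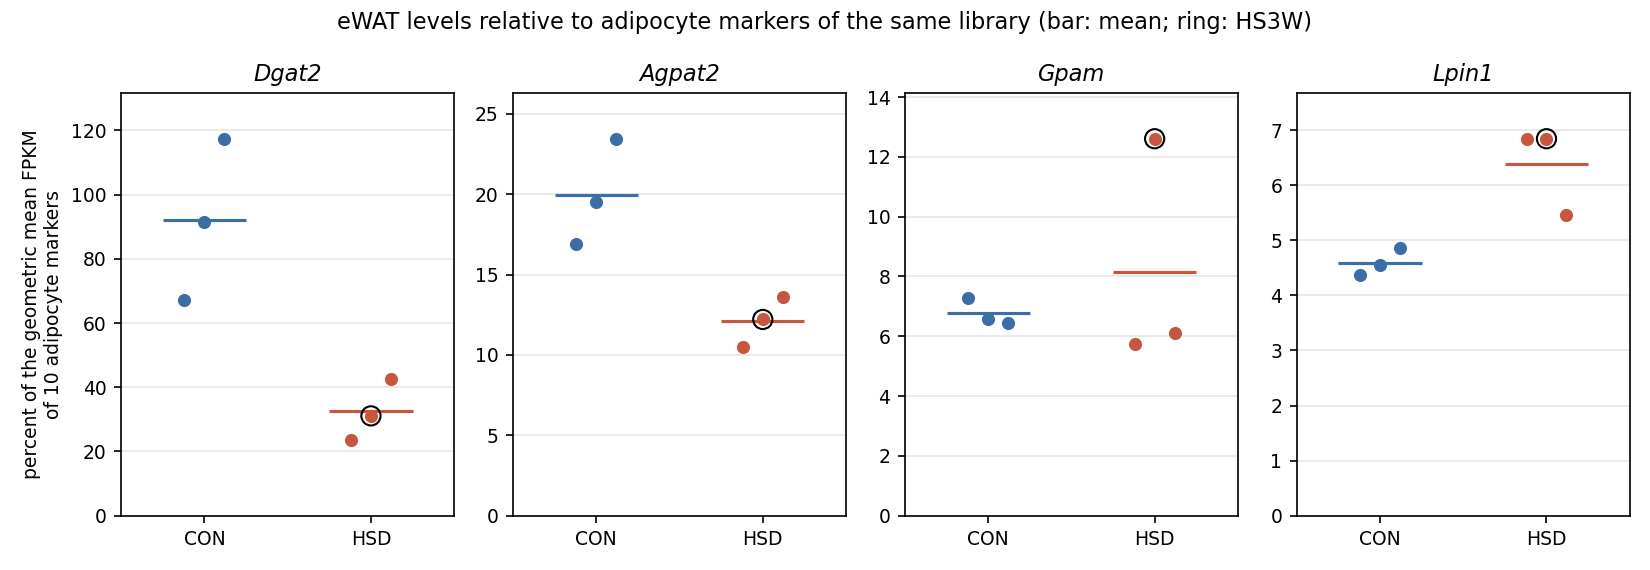
Level of *Dgat2*, *Agpat2*, *Gpam* and *Lpin1* in the 6 eWAT libraries as a percent of the geometric mean FPKM of 10 adipocyte markers of the same library, with bars at group means and a ring around HS3W. *Dgat2* and *Agpat2* of the HSD libraries lie below CON, *Lpin1* lies above, and *Gpam* overlaps. The rise of *Lpin1* is smaller than that of the median gene on this scale.

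Relative to *Dgat1* in the same library, *Dgat2* was at 6.94, 10.9 and 12.5 in CON eWAT and at 2.67, 2.41 and 3.97 in HSD eWAT. The groups were separate with HS3W and without it. The geometric mean of the ratio was 3.34-fold lower in HSD (exact permutation p = 0.1, the smallest possible, adjusted p = 0.225), and left-out libraries gave log2 differences from −1.99 to −1.56. *Dgat1* made up 9.45% ± 2.76 of DGAT FPKM in CON eWAT and 25.6% ± 4.83 in HSD eWAT. *Gpam* relative to *Agpat2* was at 0.430, 0.338 and 0.275 in CON eWAT and 0.549, 1.03 and 0.448 in HSD eWAT, with HSD above CON. In liver the same ratio was at 0.321, 0.239 and 0.271 in CON and 0.228, 0.153 and 0.221 in HSD, with HSD below CON. Both had an exact permutation p of 0.1.

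**Figure D5:**
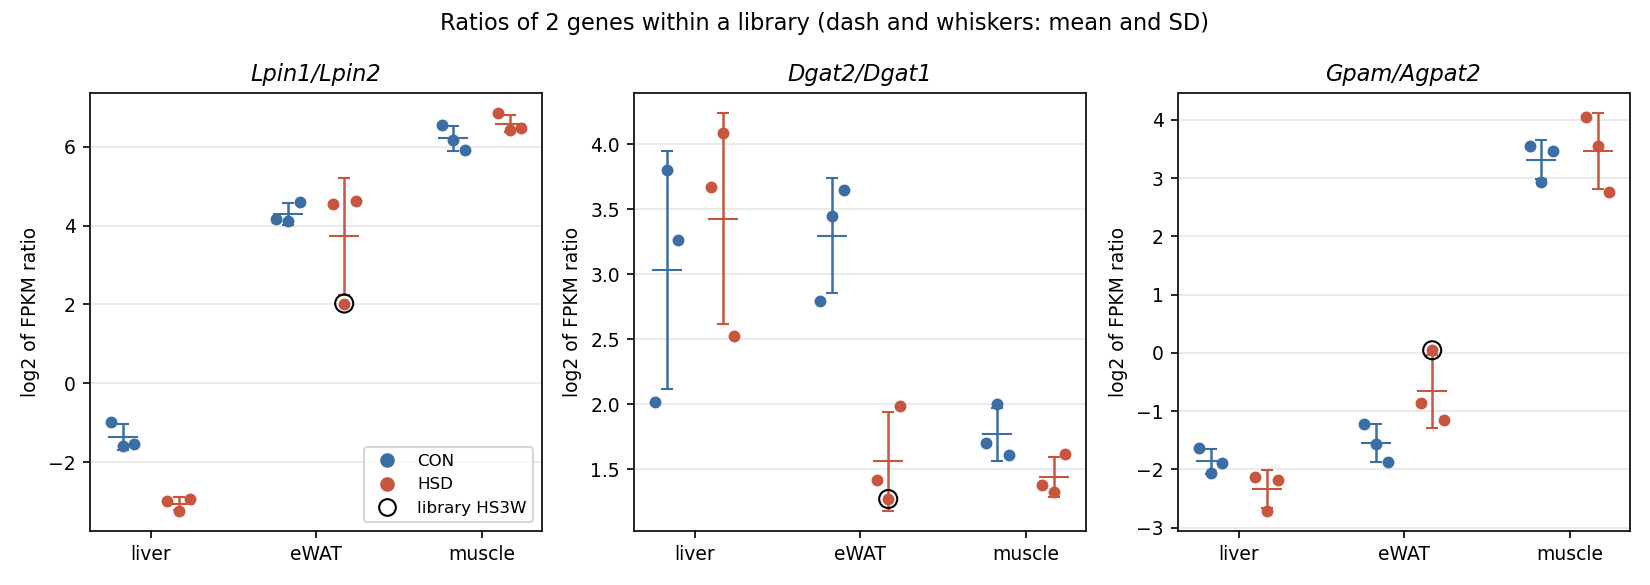
Log2 ratio of FPKM of 2 genes of the same library, by tissue and diet, with the mean (dash), the SD (whiskers) and a ring around HS3W. *Lpin1*/*Lpin2* is separate by diet in liver, *Dgat2*/*Dgat1* in eWAT and *Gpam*/*Agpat2* in both, and no ratio is separate in muscle.

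Within the AGPAT family of eWAT, *Agpat2* held 75.1% ± 3.73 of the summed FPKM of *Agpat1* to *Agpat5* in CON and 54.3% ± 17.3 in HSD, while *Agpat1* held 11.2% ± 1.65 and 22.6% ± 11.9. By library, the *Agpat2* share was 71.0%, 75.8% and 78.4% in CON, and 60.8% in HS2W, 34.7% in HS3W and 67.4% in HS5W. *Agpat1* held 17.1%, 36.3% and 14.4% in these HSD libraries, so HS3W, with the epididymal markers, set the low and the high end. Within the GPAT family of eWAT, *Gpam* held 49.0% ± 1.41 in CON and 46.8% ± 4.14 in HSD. *Gpat4*, the microsomal enzyme, held 25.3% ± 2.20 and 32.2% ± 2.96. In liver *Gpam* held 57.3% ± 4.26 in CON and 47.9% ± 4.83 in HSD, and *Gpat4* 31.6% ± 4.32 and 42.7% ± 3.44. These are descriptions with no test.

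Of the other pathway genes, 34 were tested in eWAT and none was called with limma, over all or over the study's libraries. At an unadjusted p under 0.05, 1 was higher and 4 were lower, against 16.7% of all genes, with a median of 0.03 against 0.08 over all genes. *Mogat2*, which makes diacylglycerol from monoacylglycerol and so bypasses phosphatidate, was at 2.31, 7.69 and 6.26 FPKM in CON and at 0.359, 0.620 and 0.416 FPKM in HSD. All HSD values were under all CON values, with a log2 fold change of −2.49 (SE 0.42, adjusted p = 0.116). *Pcyt1a*, which controls phosphatidylcholine synthesis, was at 10.6 ± 0.326 and 7.97 ± 1.13 FPKM (−0.40, SE 0.12). Over the study's libraries *Mogat2* (−2.45, SE 0.51) and *Agpat5* (−0.51, SE 0.14) had the smallest p.

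In muscle the log2 fold changes of the 6 genes tested lay between −0.36 and 0.04. *Lpin1* was at 36.9, 30.9 and 27.1 FPKM in CON and at 40.9, 29.3 and 25.9 FPKM in HSD, and *Gpam* at 38.6, 33.3 and 29.6 and at 42.9, 32.8 and 29.6 FPKM. The groups overlapped for both. The log2 fold changes were 0.00 (95% interval −0.40 to 0.41) and 0.04 (−0.32 to 0.41). *Dgat2* was at 11.7, 18.9 and 11.5 FPKM in CON and at 9.97, 10.04 and 11.6 FPKM in HSD, with the farthest value from 0 of the 6 genes tested (−0.36, SE 0.18, adjusted p = 0.364 in limma). *Lpin3*, *Agpat2* and *Dgat1* had log2 fold changes between −0.09 and −0.05. *Lpin2* was under the expression filter. It was at 0.395, 0.428 and 0.453 FPKM in CON and at 0.356, 0.340 and 0.290 FPKM in HSD, with no overlap, at 62 to 64 against 44 to 58 fragments, and 15.6% of the genes tested were as separate with HSD below CON. None of the 6 genes tested was called, against 35 of 10834 genes (0.323%), or 54 with the replicate number as a block.

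Of the other pathway genes, 31 were tested in muscle and none was called. At an unadjusted p under 0.05, 1 was higher and 6 were lower, against 16.3% of all genes (1761 of 10834), with a median of −0.09 against −0.06 over all genes. *Gpd1*, which makes glycerol 3-phosphate, was at 156, 135 and 162 FPKM in CON and 124, 91.2 and 111 FPKM in HSD (log2 fold change −0.48, SE 0.14, adjusted p = 0.145 in limma). *Pcyt2* was at 6.91 ± 0.551 and 5.01 ± 0.751 FPKM (−0.43, SE 0.13).

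Whether diet acted differently in 2 tissues was tested as an interaction over all 18 libraries and 13067 genes. For liver minus eWAT, *Dgat2* had a log2 difference of 2.87 (SE 0.65, adjusted p = 0.054 in limma). Its mean was 1.64-fold higher in HSD liver and 3.66-fold lower in HSD eWAT. *Agpat2* had 1.60 (SE 0.54, adjusted p = 0.213), *Lpin1* −1.59 (SE 0.48, adjusted p = 0.171) and *Lpin3* −0.88 (SE 0.30, adjusted p = 0.212). None of the 7 was called, against 0.758% of genes. *Dgat2* was called when CON16L (3.17, adjusted p = 0.0273), HS5L (3.04, adjusted p = 0.0294) or HS5W (3.37, adjusted p = 0.00852) was left out, and *Lpin1* when HS3W was left out (−2.06, adjusted p = 0.0165). Calls over all genes were then 238 of 13117, 544 of 13119, 300 of 13019 and 102 of 12647 in that order. With all libraries they were 99 of 13067. With the mouse label as a random block, *Dgat2* had an adjusted p of 0.0521. Of the 37 other genes, *Mogat2* was called (2.54, SE 0.46, adjusted p = 0.0174). It was listed at 0 FPKM in 5 of the 6 liver libraries and at 0.0525 in HS4L, and passed the filter through eWAT, so this difference repeats its eWAT value and is no separate result.

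For liver minus muscle, *Lpin1* had −1.67 (SE 0.48, adjusted p = 0.308) and *Dgat2* 1.18 (SE 0.65, adjusted p = 0.688 in limma), and none of the 7 was called against 0.0612% of genes. *Cds2* (0.83, SE 0.29) and *Selenoi* (0.81, SE 0.33) had the smallest p of the other pathway genes. For eWAT minus muscle, *Dgat2* had −1.69 (SE 0.65, adjusted p = 0.528) and *Agpat2* −1.18 (SE 0.54, adjusted p = 0.616), and 0 genes were called, with 8% at an unadjusted p under 0.05. *Gpat3* (−1.10, SE 0.43) and *Mogat2* (−2.03, SE 0.46, adjusted p = 0.177) had the smallest p of the other genes, and *Mogat2*, at 0 to 0.452 FPKM in muscle, again rests on its eWAT values. The 3 contrasts share libraries.

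The genes whose pattern was most like each of the 7 were sought over 18 libraries and 9001 genes, as Pearson's r of log2(FPKM + 0.5) after each tissue's mean was subtracted. These r describe libraries that share tissue, depth and diet. *Agpat2* and *Dgat2* were each among the 3 nearest of the other, with r = 0.93, and r = 0.88 without HS3W. The nearest to *Dgat2* was *Hfe* (r = 0.95), a regulator of iron uptake, and *Bcar3* was near both (r = 0.91 with *Agpat2* and 0.93 with *Dgat2*), as was *Ppp2r5a* to *Agpat2* (r = 0.93). *Lpin1* was nearest to *Septin8* (r = 0.92), the heme synthesis enzyme *Alas1* (r = 0.89) and the acetyl-CoA carboxylase *Acacb* (r = 0.89).

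For *Lpin3* the nearest were *Nlk* (r = 0.92), *Ralgps1* (r = 0.91) and *Zkscan7* (r = 0.90), with 0.87, 0.85 and 0.84 without HS3W. For *Dgat1* they were *Lims2* (r = 0.91), *Xdh* (r = 0.89) and *Il15ra* (r = 0.87), with 0.80, 0.78 and 0.89 without HS3W. *Lpin2* had *Ip6k2* (r = 0.87, and 0.64 without HS3W), *Ift140* (r = 0.85) and *Cpeb2* (r = 0.85, and 0.56 without HS3W). *Gpam* had *Olfml1* (r = 0.86), *Adamts2* (r = 0.85) and *Pank3* (r = 0.79), with 0.74, 0.72 and 0.65 without HS3W. Between the lipins r was −0.05 for *Lpin1* with *Lpin2*, 0.23 for *Lpin1* with *Lpin3* and 0.52 for *Lpin2* with *Lpin3*. Without HS3W these were 0.51, 0.70 and 0.07, so these values turned on that library.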

How the data were processed

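RNA of whole liver, eWAT and muscle was depleted of ribosomal RNA and sequenced as stranded libraries, 18 in all. Per the study's methods, the authors trimmed reads with cutadapt 1.9.3, aligned them with hisat2 2.0.4 to mouse build mm10 and took FPKM per gene from cuffdiff. The submitters' processing notes also name HTSeq 0.9.1 and mm9. Neither source states which of these tools made the deposited FPKM. The FPKM were used as deposited. Whether the counting used strand is not given in the sources used here.

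Fragments were recovered as whole multiples of the FPKM step, with a tolerance of 0.02 fragments, and served to give depth. FPKM share 1 total per library, so mitochondrial or tissue-specific abundance moves every other gene. Log2(FPKM + 0.5) was fitted with limma 3.58.1 (R 4.3.3, empirical Bayes with trend) over genes whose mean FPKM reached 0.5, and p-values were adjusted by Benjamini-Hochberg over all genes tested. The scripts were tested on simulated data. Diet was fitted within each tissue, the difference between tissues over all 18 libraries, and tissues over the 9 CON libraries. Ratios of FPKM were compared by exact permutation, 2-sided (scipy 1.17.1, numpy 2.4.6, pandas 2.3.3, Python 3.11.15), and plots were made with matplotlib 3.10.9.

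All 7 genes are named in each comparison. Of the 37 other pathway genes, those called were named, up to 5 in each direction, or else the 2 with the smallest p. For each of the 7 genes the 3 with the highest r were named. The 7 genes, the pathway lists and the marker lists were chosen with earlier results of these data known. Replicate numbers of the labels were checked by the correlation of deviations from group means. In muscle every number correlated positively (r = 0.38, 0.18 and 0.18 over 10834 genes). The main muscle fit still held diet alone, and the number entered as a block only among the alternatives. In liver (−0.47, 0.40 and −0.21) and eWAT (−0.20, 0.06 and 0.41) the signs of r were mixed. Alternatives were the pseudocount, the filter, scaling, library weights, a fit of all tissues, blocks, left-out libraries and limma voom on the recovered fragments.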

Additional observations from a re-analysis of the deposited data

How the results depend on the processing

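Of 827 values for single genes under other settings, 764 kept their direction and side of the threshold, and of 750 with a library left out, 708 did. The cause of the others was not tested. A gene uncalled both times with the same sign counts as kept, and none of the 7 was called in the main diet or interaction fits. The CON tissue comparisons are pooled in as well, so these counts say little about the diet differences. With library weights, 1 of the 7 genes was called in liver (*Lpin1*), 1 in eWAT (*Dgat2*) and 1 for the diet effect in eWAT minus muscle (*Dgat2*), and values turned for *Lpin2* in liver (0.30), *Lpin1* (0.37) and *Lpin3* (−0.087) in eWAT, *Lpin1* (−0.13), *Gpam* (−0.066) and *Agpat2* (0.087) in muscle, and *Lpin1* (0.51), *Lpin3* (−0.067) and *Dgat1* (0.045) for eWAT minus muscle. Over all genes these weights called 926 of 10317 in liver, 220 of 13740 in eWAT and 362 of 13067 for eWAT minus muscle. With all tissues in 1 fit, 1 was called in liver (*Lpin1*), 1 in eWAT (*Dgat2*), 2 in the study's liver libraries (*Lpin1* and *Dgat2*) and 2 in its eWAT libraries (*Agpat2* and *Dgat2*). In the same order, that fit called 41 and 161 of 13067 genes and 1817 and 570 of 13149. In the study's liver libraries 1 (*Lpin1*) was called with a pseudocount of 1, a mean FPKM of at least 1, mitochondrially encoded genes left out or library weights. Calls over all genes were 238 of 9970, 322 of 8492, 196 of 10847 and 757 of 9970 in that order.

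With quantile normalization, values turned for *Agpat2* in liver (−0.086) and in the study's liver libraries (−0.26), *Dgat1* in the latter (−0.27), *Lpin1* (−0.036), *Lpin3* (0.055), *Agpat2* (0.0099) and *Dgat1* (0.048) in muscle, *Agpat2* for the diet effect in liver minus muscle (−0.083), *Lpin3* for CON eWAT minus liver (−0.48) and *Lpin1* for CON muscle minus eWAT (0.12). Median-ratio scaling turned *Dgat1* in muscle (0.018) and in the study's liver libraries (−0.22), *Lpin3* (−0.45) and *Agpat2* (−0.061) for CON eWAT minus liver, and *Lpin1* (0.62) and *Gpam* (0.17) for CON muscle minus eWAT. It left 3 of the 7 genes called for CON eWAT minus liver and 3 for CON muscle minus eWAT, where quantile normalization also left 3. Of all 12637 genes, median-ratio scaling called 5291 and 4815 in these comparisons, and quantile normalization 4672 in the latter. Without mitochondrially encoded genes, *Agpat2* in liver (−0.039) and in the study's liver libraries (−0.13), *Dgat1* in the latter (−0.68), *Lpin1* in muscle (−0.018) and *Gpam* for liver minus eWAT (−0.13) turned. A pseudocount of 0.1 turned *Lpin2* for liver minus muscle (0.11). Relative to adipocyte markers, an alternative chosen after seeing the data, *Lpin1* (0.46), *Gpam* (0.17) and *Dgat1* (0.23) turned in eWAT, and in the study's eWAT libraries *Lpin1* (0.57), *Gpam* (0.33) and *Dgat1* (0.23). The median of all genes on this scale was 0.60 over all eWAT libraries and 0.88 over the study's, above each of these values.

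With single libraries left out, 0 to 2 of the 7 genes were called in the study's liver libraries, where 1 library is then alone in its group and is assumed to vary like the others, 0 to 5 in its eWAT libraries (5 without HS2W, which leaves HS3W, with the epididymal markers, as the lone HSD library), and 0 to 1 for liver minus eWAT. Ranges that crossed 0 were, in eWAT, *Lpin1* −0.39 to 0.39, *Lpin3* −0.082 to 0.40 and *Dgat1* −0.60 to 0.081. In muscle they were *Lpin1* −0.18 to 0.14, *Gpam* −0.11 to 0.15, *Agpat2* −0.29 to 0.074 and *Dgat1* −0.11 to 0.061. In the study's liver libraries they were *Lpin2* −0.43 to 0.28, *Gpam* −0.20 to 0.17 and *Dgat1* −0.23 to 0.32, and in its eWAT libraries *Lpin1* −1.03 to 0.53 and *Lpin3* −0.15 to 0.82. Between tissues they were *Lpin2* −0.24 to 0.12 for liver minus muscle, and *Lpin1* −0.39 to 0.39 and *Dgat1* −0.56 to 0.13 for eWAT minus muscle. Of the log2 ratios they were *Lpin1*/*Lpin2* in eWAT (−1.01 to 0.29), *Dgat2*/*Dgat1* in liver (−0.11 to 0.85) and *Gpam*/*Agpat2* in muscle (−0.15 to 0.49).

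With the replicate number as a block, none of the 7 genes was called (*Dgat2* in muscle −0.36, adjusted p = 0.246), no call of these genes changed, and 54 in place of 35 genes were called in muscle. The block could not be fitted for the study's liver libraries, and edgeR was not run because the deposited values are FPKM. Over all genes, calls in liver were 0, and 926 with library weights, 41 in a fit of all tissues or 1 without CON16L. In eWAT they were 0, and 220 with library weights, 161 in a fit of all tissues, 160 without HS3W or 1 without CON72W. In muscle they were 35, and 5 to 97 over the settings. In the study's liver libraries calls were 35, and 0 to 1817, and 3153 without CON72L, with CON14L alone in CON. In its eWAT libraries they were 0, and 570 in a fit of all tissues or 2735 without HS2W, against the lone HS3W. For liver minus eWAT calls were 99, and 5 to 544, for liver minus muscle 8, and 1 to 59, and for eWAT minus muscle 0, and up to 362. For CON eWAT minus liver 7851 were higher and 917 lower, against 2706 and 2585 with median-ratio scaling. With 3 libraries a group, a level of 33 fragments, as for *Lpin3* in liver, limits what could be seen.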
